A study of Mus musculus with 26 samples.

Results

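A set of 9 genes of the LIF, FGF and Wnt signalling pathways was examined for RNA 5-hydroxymethylcytosine (5hmC), namely Lifr, Il6st, Jak1, Stat3, Socs3, Fgfr1, Map2k1, Gsk3b and Ctnnb1. They were 9 of 22238 protein-coding gene symbols in the mm9 annotation (GENCODE M1). They were chosen by name, with earlier results of these data known. A peak was assigned to a gene when its summit, the midpoint of the deposited interval, fell within the annotated span of the gene, and overlapping intervals of all libraries were merged into regions. By this rule the 9 genes held 38 of 56538 peaks and 21 of 18820 regions in coding genes. Jak1 held none. The peaks came from hMeRIP-seq, in which fragmented total RNA was precipitated with an anti-5hmC antibody and sequenced beside its input.

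WT ESC were wild-type mouse embryonic stem cells, and TKO ESC were stem cells with a knockout of Tet1, Tet2 and Tet3, the enzymes that oxidise 5-methylcytosine. WT EB were embryoid bodies that the wild-type stem cells formed during 4 days of culture from which leukaemia inhibitory factor (LIF) had been left out, whereas every stem cell group was grown with LIF. These 3 groups had 3 libraries each. Tet2-KI ESC carried a Flag, HA and Twin-Strep tag at the C-terminus of endogenous Tet2, and Tet2deltaRBD-KI ESC carried the same tag on a Tet2 that lacked its RNA-binding domain. Both knock-in groups had 2 libraries and came from clones that were picked after genome editing, so a difference between these groups cannot be told apart from a difference between clones. Peak lists hold no expression values, so the identity of the cells was not checked against marker genes.

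LIF binds a receptor made of Lifr and Il6st (gp130), on which Jak kinases phosphorylate Stat3. Stat3 then enters the nucleus and sustains self-renewal of mouse stem cells, and it switches on Socs3, which inhibits the receptor. Fgfr1 signals through Map2k1 (MEK1) to ERK, a route that moves stem cells towards differentiation. Gsk3b phosphorylates β-catenin, the product of Ctnnb1, and so marks it for degradation, whereas Wnt ligands stop this step. Inhibitors of MEK and of GSK3 are used together with LIF to keep mouse stem cells in the naive state.

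The 13 lists held between 498 and 10383 peaks. Member genes had 1, 5 and 1 peaks in WT ESC replicates 1 to 3, 1 peak in TKO ESC replicate 2 and 1 in WT EB replicate 1. The other TKO ESC and WT EB libraries had 0. They had 12 and 4 peaks in the 2 Tet2-KI ESC libraries and 7 and 6 in the 2 Tet2deltaRBD-KI ESC libraries. Knock-in libraries thus gave 29 of the 38 member peaks, against 44.7% of all peaks in coding genes. The knock-in libraries carried no prefix in their descriptions, unlike those of the other groups (1608, 1610 or 1703), so knock-in state cannot be told apart from what this prefix marks.

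List length moved with these numbers, and its part in them was not tested. Per 1000 listed peaks, the members had 0.361 ± 0.298 peaks in WT ESC (SD, n = 3), 0.0771 ± 0.134 in TKO ESC (n = 3) and 0.669 ± 1.16 in WT EB (n = 3). These spreads overlapped. The WT EB value rested on 1 peak in a list of 498. The knock-in groups had 0.924 ± 0.328 (n = 2) and 1.66 ± 0.212 (n = 2), the latter for Tet2deltaRBD-KI ESC. Per Mb of gene span, Tet2-KI ESC replicate 1 had 20.4 peaks in the members and 8.33 in all coding genes, replicate 2 had 6.79 against 5.12, and Tet2deltaRBD-KI ESC replicates 1 and 2 had 11.9 and 10.2 against 3.99 and 2.99. In WT ESC replicates 1 and 3 the members had fewer peaks per Mb than all coding genes, at 1.70 in both against 2.94 and 4.58, and in replicate 2 they had more, at 8.48 against 5.24.

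**Figure D1:**
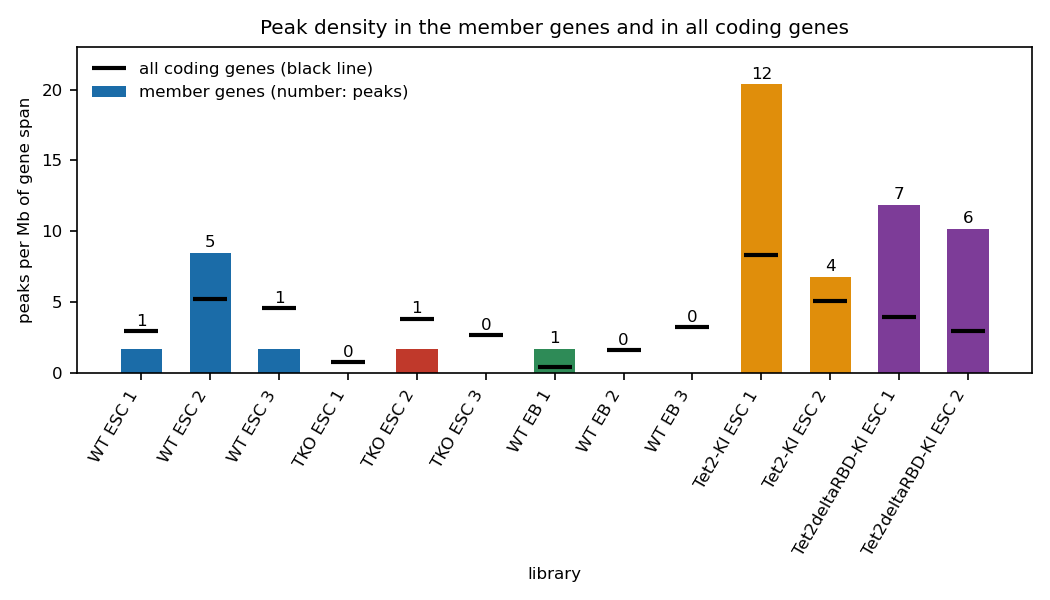
Bars give the peaks of the 9 member genes per Mb of their joint span in each of the 13 libraries, coloured by group, with the number of peaks above; black lines give the same density over all coding genes. The bars stand above the line in WT ESC replicate 2, WT EB replicate 1 and the 4 knock-in libraries, and at or below 1.70 per Mb in the others.

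Of the 9 genes, 8 had a peak in at least 1 library, beside 32.3% of all coding genes. The members were also long, with a median span of 62.1 kb against 15.5 kb for all coding genes. By group, 4 members had a peak in any WT ESC library (19.8% of coding genes), 1 in any TKO ESC library (11.5%) and 1 in any WT EB library (8.36%). In the knock-in groups, 7 members had a peak in any Tet2-KI ESC library (22.3%) and 7 in any Tet2deltaRBD-KI ESC library (16.3%). Single libraries decided several of these counts, which were 2 in WT ESC without replicate 2, 4 in Tet2-KI ESC without replicate 1, 0 in TKO ESC without replicate 2 and 0 in WT EB without replicate 1. The members Il6st, Stat3, Socs3 and Map2k1, 4 of the 8 with a peak, had peaks in knock-in libraries only, beside 28.1% of the coding genes with a peak. No member had a peak in every library of WT ESC, TKO ESC or WT EB, which 5%, 1.34% and 0.63% of coding genes had. In the knock-in groups, 4 members had a peak in both Tet2-KI ESC libraries and 3 in both Tet2deltaRBD-KI ESC libraries. The shares of coding genes for these 2 counts are not given here.

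Lifr, the LIF-binding subunit of the receptor, held 5 regions on chr15 (67.9 kb span, plus strand). The region with the most libraries, chr15:7082706-7082938, lay in an intron 3273 bp from the gene start. It had a peak in Tet2-KI ESC replicates 1 and 2 and in Tet2deltaRBD-KI ESC replicate 1, with summits within 33 bp of each other. It had none in the other 10 libraries. Its sequence is shown as that of the Lifr region with the most libraries, and capitals mark runs of at least 8 purines or at least 8 pyrimidines.
Lifr, chr15:7082732-7082931, plus strand of mm9: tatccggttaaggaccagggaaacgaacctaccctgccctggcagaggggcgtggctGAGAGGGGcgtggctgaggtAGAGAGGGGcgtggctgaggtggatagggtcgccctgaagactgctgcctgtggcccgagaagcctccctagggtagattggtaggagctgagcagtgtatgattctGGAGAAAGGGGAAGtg
The capitals in this window were purine runs in all 3 cases.

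A second Lifr region, chr15:7079625-7079831, lay in the 5′ UTR, 166 bp from the gene start, and had peaks in Tet2-KI ESC replicate 1 and Tet2deltaRBD-KI ESC replicate 1 whose summits were 7 bp apart. The 3 remaining Lifr regions had 1 library each, and all 3 were intronic. Of these, 2 regions, at chr15:7091317-7091516 and chr15:7140399-7140598, were found in WT ESC replicate 2 with the same fold enrichment of 5.32. Fold enrichment is the IP signal over the background that the peak caller estimated with the input. The value of 5.32 stood at percentile 47.7 of its list and was shared by 16 peaks of the list. The third, chr15:7117677-7117876 in intron 5 of 18, was found in Tet2-KI ESC replicate 1.

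Il6st, which encodes gp130, the signalling subunit that LIF shares with other cytokines, held 1 region. It lay in intron 1 of 14 at chr13:113268323-113268522 and had a peak in Tet2-KI ESC replicate 1 only. Without that library Il6st had no peak. Its window, shown as the only site of this gene, held 1 purine run and no pyrimidine run of 8 or more.
Il6st, chr13:113268323-113268522, plus strand of mm9: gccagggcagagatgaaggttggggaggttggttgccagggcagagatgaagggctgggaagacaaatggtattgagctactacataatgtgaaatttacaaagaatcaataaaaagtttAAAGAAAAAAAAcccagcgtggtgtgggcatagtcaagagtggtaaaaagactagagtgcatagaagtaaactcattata
With 32% pyrimidines it was the window poorest in pyrimidines among the 21.

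Jak1, the kinase bound to the receptor, had no peak in any of the 13 libraries over its 113 kb span. The nearest summit of any library lay 83149 bp outside it, in WT ESC replicate 2. Without read counts, a lack of peaks cannot be read as a lack of 5hmC.

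Stat3, the transcription factor that carries the LIF signal to the nucleus, held 1 region in exon 1 at chr11:100800526-100800730 (minus strand). It lay in the 5′ UTR, 228 bp from the gene start, within an exon of all 4 annotated coding transcripts. Tet2-KI ESC replicate 1 and Tet2deltaRBD-KI ESC replicate 1 both had a peak there, with summits 5 bp apart, and the other 11 libraries had none. Socs3, the inhibitor that Stat3 induces, held 1 region in the coding sequence of exon 2 of 2, at chr11:117829429-117829628, found in Tet2deltaRBD-KI ESC replicate 2 only. Stat3 and Socs3 were thus without a peak in the 9 libraries outside the knock-in groups.

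Fgfr1, the main FGF receptor of mouse stem cells, held 1 region, chr8:26629312-26629656, in the 5′ UTR of exon 1 of the transcript with the longest coding sequence, 5290 bp from the annotated gene start. An exon of 2 of the 6 coding transcripts covered the summit. The region was found in 4 libraries. WT ESC replicate 2 had a fold enrichment of 4.77, at percentile 29.1 of its list, and Tet2-KI ESC replicate 1 and both Tet2deltaRBD-KI ESC libraries had a peak without a value, since the knock-in lists hold positions only. The summits of the knock-in libraries lay between 26629412 and 26629420, whereas that of WT ESC lay at 26629557. When intervals had to share 100 bp to be merged, the WT ESC peak became a region of its own.

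Map2k1, the kinase that activates ERK, held 4 regions on the minus strand of chr9, all of them in knock-in libraries only. Its 5′ UTR region in exon 1, chr9:64101095-64101297, lay 243 bp from the gene start and had peaks in Tet2-KI ESC replicate 2 and Tet2deltaRBD-KI ESC replicate 2, with summits 3 bp apart. The other 3 were found in Tet2-KI ESC replicate 1 only. They lay in intron 1 at chr9:64080361-64080560, in intron 1 at chr9:64089947-64090146 and in the coding sequence of exon 7 of 11 at chr9:64039276-64039475. The intron 1 window at chr9:64089947-64090146 held a tandem repeat of 31 bp within a purine run of 36. The exon 7 window, shown as the lowest in position of these 3, held 3 pyrimidine runs of 8 or more, beside 1 purine run.
Map2k1, chr9:64039276-64039475, minus strand of mm9: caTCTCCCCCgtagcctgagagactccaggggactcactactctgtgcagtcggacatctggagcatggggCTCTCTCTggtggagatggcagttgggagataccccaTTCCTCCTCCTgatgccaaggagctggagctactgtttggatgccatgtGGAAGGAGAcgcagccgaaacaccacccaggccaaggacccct
It held 49.5% pyrimidines, above the median of all regions (42.5%).

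Gsk3b, the kinase that marks β-catenin for degradation, had the most peaks of the 9 genes, 11 in 8 libraries, and the longest span (157 kb on chr16, plus strand). It was the only member with a peak in TKO ESC or in WT EB. The region chr16:38093023-38093422 in intron 1 of 11, 4046 bp from the gene start, was found in TKO ESC replicate 2 with a fold enrichment of 6.25 (percentile 34.4 of its list), in both Tet2-KI ESC libraries and in Tet2deltaRBD-KI ESC replicate 1. WT ESC was without a peak there. The summit of Tet2-KI ESC replicate 2 lay at 38093323, whereas the other 3 lay between 38093123 and 38093135, and a required overlap of 100 bp separated it from them.
Gsk3b, chr16:38093033-38093232, plus strand of mm9: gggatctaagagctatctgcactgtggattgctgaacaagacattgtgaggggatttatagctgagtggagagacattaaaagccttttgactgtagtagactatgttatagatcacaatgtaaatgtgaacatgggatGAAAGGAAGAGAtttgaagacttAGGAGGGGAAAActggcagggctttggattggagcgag
This window, from the only member site with a TKO ESC peak, covers those 3 summits and held 2 purine runs and no pyrimidine run in capitals.

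The 5′ UTR region of Gsk3b, chr16:38089622-38089981, lay 764 bp from the gene start in an exon of 1 of the 2 coding transcripts. WT ESC replicate 3 had a fold enrichment of 3.42 there, at percentile 4.97 of its list, and WT EB replicate 1 had 4.83, at percentile 38.0. These were 1 library per group, so the difference has no replicate check. Tet2deltaRBD-KI ESC replicate 2 also had a peak, up to 160 bp upstream of the others. Of the 7 member regions with a WT ESC peak, this 1 also had a WT EB peak, beside 22.4% of coding-gene regions with a WT ESC peak. A 3′ UTR region, chr16:38243145-38243453, was found in WT ESC replicate 2 (fold enrichment 4.04, percentile 12.1) and Tet2deltaRBD-KI ESC replicate 2, with summits 109 bp apart. The remaining 2 Gsk3b regions had 1 library each, in intron 2 at chr16:38148622-38148821 in WT ESC replicate 2 (fold enrichment 6.94, a value that 194 peaks of that list shared) and in intron 3 at chr16:38178027-38178226, over a 28 bp tandem repeat, in Tet2deltaRBD-KI ESC replicate 1.

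Ctnnb1, which encodes β-catenin, held 3 regions, all in intron 1 of 14 on the plus strand of chr9. The region chr9:120851701-120851913 was found in WT ESC replicate 1 with a fold enrichment of 9.97, the highest of the 9 deposited member values, at percentile 88.3 of its list. Both Tet2-KI ESC libraries and Tet2deltaRBD-KI ESC replicate 1 had a peak at the same place, and all 4 summits lay within 13 bp. WT ESC replicates 2 and 3 and every TKO ESC and WT EB library had none.
Ctnnb1, chr9:120851712-120851911, plus strand of mm9: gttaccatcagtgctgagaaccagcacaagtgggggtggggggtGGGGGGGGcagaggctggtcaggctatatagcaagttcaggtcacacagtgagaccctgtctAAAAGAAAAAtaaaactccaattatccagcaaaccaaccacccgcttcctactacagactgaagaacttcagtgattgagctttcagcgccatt
The capitals in this window are 2 purine runs. The other regions, chr9:120848233-120848432 in Tet2-KI ESC replicate 1 and chr9:120859159-120859358 in Tet2deltaRBD-KI ESC replicate 2, had 1 library each.

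**Figure D2:**
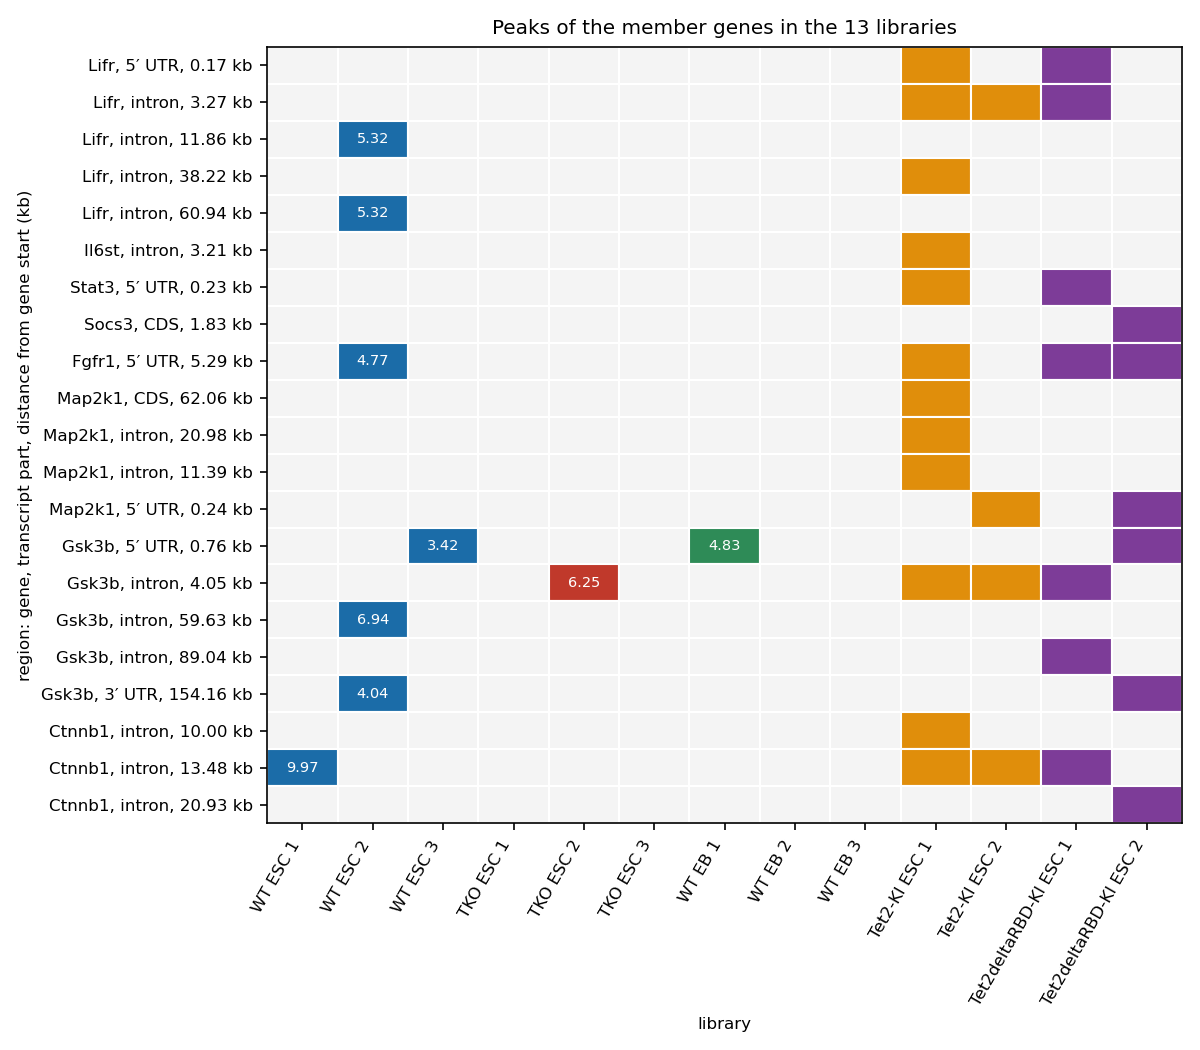
Each row is a member region with its transcript part and distance from the gene start, and each column is a library; a filled cell is a peak, coloured by group, with the deposited fold enrichment where the list gives one. No row is filled in all 3 WT ESC columns, and the TKO ESC and WT EB columns hold 1 filled cell each.

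**Figure D3:**
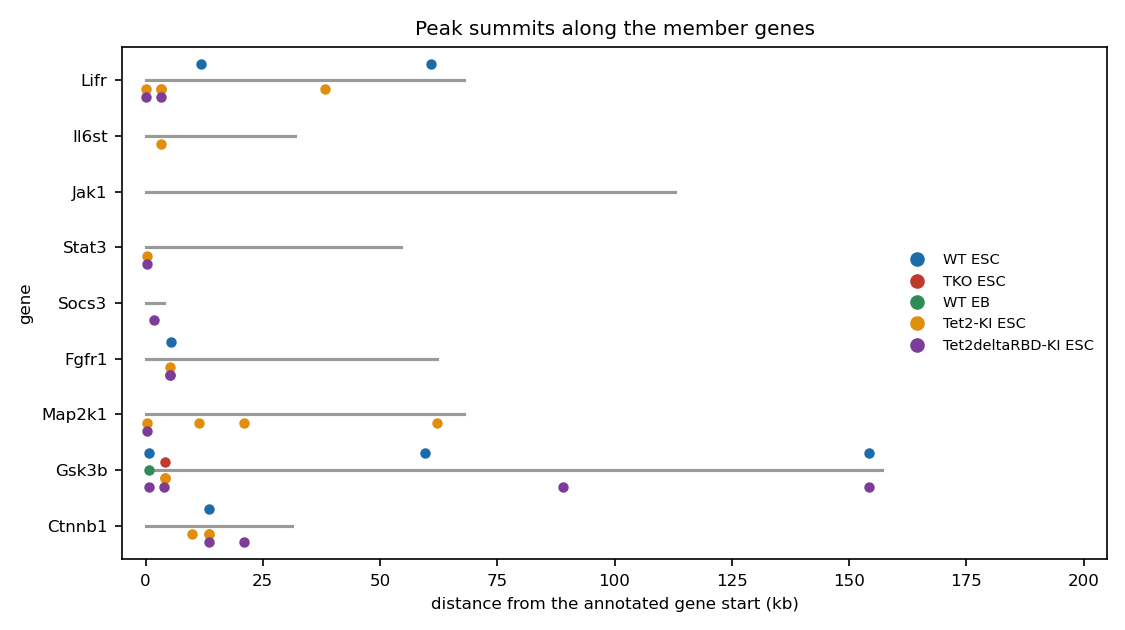
Grey lines are the annotated spans of the 9 genes in kb from the gene start, and each point is a peak summit coloured by group. Points of the knock-in groups lie within 1000 bp of the start of Lifr, Stat3, Map2k1 and Gsk3b, further ones lie along Lifr, Map2k1 and Gsk3b, and Jak1 holds no point.

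The comparison of WT ESC with TKO ESC asked which 5hmC peaks need the Tet enzymes. None of the 8 member regions with a peak in either group had a peak in every WT ESC library and in no TKO ESC library, a pattern of 2.71% of coding-gene regions. All 7 WT ESC regions of the members lacked a TKO ESC peak, as did 66.4% of coding-gene regions with a WT ESC peak. Each of the 7 was found in 1 WT ESC library only, and of coding-gene regions like that, 79.3% lacked a TKO ESC peak. Over all coding genes, 12.9% of regions with a WT ESC peak were found in every WT ESC library, against 0 of 7 here. The comparison of WT ESC with WT EB asked which peaks decrease when LIF is withdrawn and cells differentiate. There, 0 of 7 member regions had the pattern of every WT ESC library and no WT EB library, which 5.02% of coding-gene regions had. As no member region had a peak in all 6 libraries of either comparison, fold enrichment could not be tested, and at this depth of peak calling neither a loss nor its absence was detectable in these genes.

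The comparison of the knock-in lines asked which peaks need the RNA-binding domain of Tet2. Of the 18 member regions with a peak in either group, 0 were found in both Tet2-KI ESC libraries and in no Tet2deltaRBD-KI ESC library, beside 7.44% of coding-gene regions. Both Tet2-KI ESC libraries held 3 of the 13 member regions with a Tet2-KI ESC peak (26.1% over all coding genes), the intronic ones of Lifr, Gsk3b and Ctnnb1. All 3 also had a peak in Tet2deltaRBD-KI ESC replicate 1 and none in replicate 2. With a required overlap of 100 bp, 2 regions were in both Tet2-KI ESC libraries, since that of Gsk3b was split. Over all coding-gene regions in both Tet2-KI ESC libraries, 60.1% had a peak in replicate 1 and 33.3% in replicate 2. The count of regions in both Tet2-KI ESC libraries and in no Tet2deltaRBD-KI ESC library changed with the libraries used. It was 3 without Tet2deltaRBD-KI ESC replicate 1, 6 without Tet2-KI ESC replicate 2 and 0 without either of the other libraries.

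Member regions were seen in few libraries, as were coding-gene regions at large, with a median of 1 library in both. Of the 21, 12 were found in 1 library only, close to the 54.2% of coding-gene regions. Knock-in libraries alone held 13 (37.8%). None of the 21 was found in more than 4 libraries, and the upper quartile over coding-gene regions was 3. Tet2-KI ESC replicate 1, the longest list, was the only source of 6 of the 21, beside 13.1% of coding-gene regions. Of the 7 regions with a WT ESC peak, 2, those of Fgfr1 and Ctnnb1, also had a Tet2-KI ESC peak (49.7% of coding-gene regions).

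By transcript part, 13 of the 21 regions were intronic, beside 68.2% of coding-gene regions, 5 lay in a 5′ UTR (5.5%), 2 in coding sequence (20.3%) and 1 in a 3′ UTR (4.09%). The summit lay within 1000 bp of the gene start in 4 of 21 (13.6%). The 5′ UTR regions, 1 each in Lifr, Stat3, Fgfr1, Map2k1 and Gsk3b, were rich in GC, at 70.5 to 74.5%, with 20 to 26 CpG dinucleotides in 200 bp. In this they were like 5′ UTR regions at large, whose medians were 72.5% and 23. The intronic member regions had 37 to 60.5% GC and 0 to 7 CpG, with medians of 47.5% and 2 beside 46% and 2 over all intronic regions. All 5 of the 5′ UTR regions had a peak in a Tet2deltaRBD-KI ESC library, as had 60.2% of 5′ UTR regions in all coding genes. Of the 13 intronic ones 5 had, beside 25.9%. The first count depended on the merging. With a required overlap of 100 bp, the WT ESC peak of Fgfr1 and the WT ESC and WT EB peaks of the Gsk3b 5′ UTR formed regions without a Tet2deltaRBD-KI ESC peak.

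**Figure D4:**
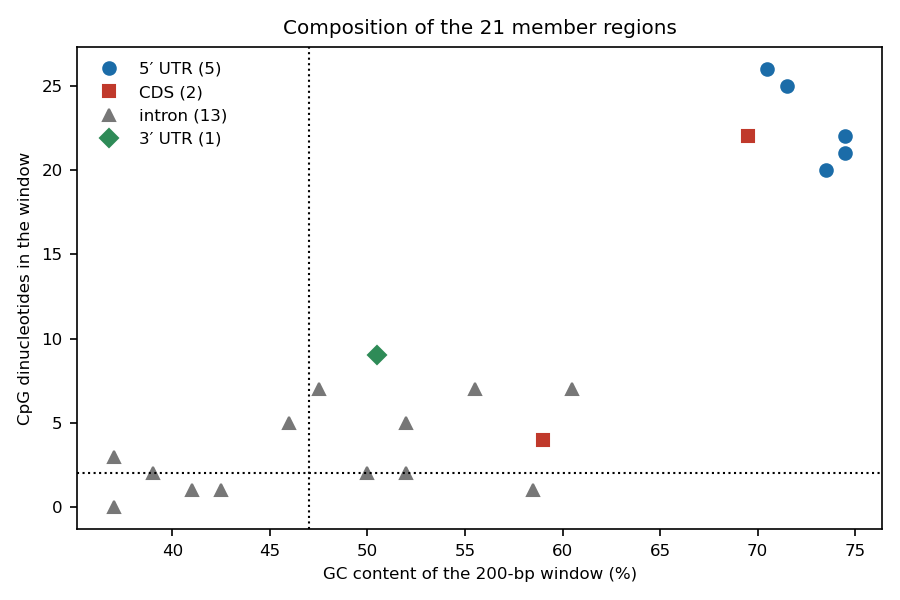
Each point is 1 of the 21 member regions, by GC content (%) and number of CpG dinucleotides in its 200-bp window, with the transcript part as symbol; dotted lines are the medians of all coding-gene regions (47% and 2). The 5′ UTR regions and the coding region of Socs3 sit above 65% GC and 15 CpG, apart from the rest.

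The study examined pyrimidine-rich (UC-rich) sequence at 5hmC peaks. Member windows, read on the strand of the gene, held 32 to 50.5% pyrimidines with a median of 43%, beside 42.5% over all coding-gene regions. A run of at least 8 pyrimidines (C or T in any order) was present in 7 of 21, against 36.7% of coding-gene regions, and a run of at least 8 purines (A or G) in 14 of 21, against 75.2%. Runs were searched on the strand of the gene only, and both kinds can occur in 1 window. A tandem repeat of a unit of 1 to 4 nt was present in 2 of 21 (8.55%). These shares were close to the background for each feature.

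Other genes of the same pathways were counted from lists of named receptors, kinases, adaptors, transcription factors and inhibitors, without the 9 members. Of 109 such genes, 70 had a peak in at least 1 library (64.2%), beside 32.3% of all coding genes. By group, 44 had one in WT ESC (19.8% of coding genes), 26 in TKO ESC (11.5%) and 15 in WT EB (8.36%). In the knock-in groups, 52 had one in Tet2-KI ESC (22.3%) and 40 in Tet2deltaRBD-KI ESC (16.3%). Median spans were 32.9 kb for these genes and 15.5 kb for all coding genes, and the part of gene length was not tested. Fgfr2, whose annotated span of 3009 kb runs over other genes, was counted in every group. By list, 13 of 21 LIF genes, 28 of 39 FGF and ERK genes and 32 of 52 Wnt genes had a peak. A region in all 3 WT ESC libraries was present in 0 of the 9 members and 5 of the 109 other genes, beside 3.76% of coding genes.

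Chd8, a chromatin remodeller that represses β-catenin targets, had such a region in intron 15 of 36 at chr14:52836181-52836435. Its fold enrichment was 9.97, 17.2 and 7.77 in WT ESC (mean 11.6 ± 4.94, SD, n = 3), and it was also found in TKO ESC replicates 2 and 3, at 8.55 and 7.76, and in all 4 knock-in libraries, but in no WT EB library. Tle4, a Groucho corepressor of TCF factors, had 1 in intron 8 of 19 at chr19:14576430-14576658, at 4.04, 6.07 and 8.63 in WT ESC. It was also found in both Tet2-KI ESC libraries and Tet2deltaRBD-KI ESC replicate 1, with no TKO ESC or WT EB peak.

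Ctbp2, a corepressor that TCF factors can recruit, had 2, both intronic. The region chr7:140302737-140303023 was found in WT ESC only, at 8.61, 3.87 and 5.90, and chr7:140314033-140314486 in WT ESC at 3.55, 5.19 and 9.92 and in both Tet2deltaRBD-KI ESC libraries. The annotated span of Fgfr2 (3009 kb, through 1 long transcript form) runs over Ctbp2 on the same strand, so the same 2 regions were also counted for Fgfr2. Position alone cannot assign the reads to either gene. The summits were spanned by 14 and 10 of the 18 coding transcripts of Ctbp2, and by 1 of the 20 of Fgfr2. The regions of Tle4 and Ctbp2 had the pattern of every WT ESC library and no TKO ESC or WT EB library that no member region had.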

How the data were processed

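Peak lists of 13 IP libraries were analysed, with groups and replicate numbers from the sample titles. The study describes its replicates as biological or independent experiments, and 2 libraries of each knock-in group were analysed here. The authors filtered and trimmed the reads (Trimmomatic), mapped them with STAR to mm9 and called peaks of each IP against its input with MACS2 (q-value threshold 0.05). Tool versions are not given in the sources used here. Each deposited interval covers 200 bp around a summit. For 9 libraries the deposited score column is the fold enrichment, the IP signal over the background that their peak caller estimated with the input. The lists give no read counts, so the depth is unknown. The label prefix was 1608 or 1610 for replicate 1 and 1703 for replicates 2 and 3.

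Intervals of the 13 libraries were merged where they overlapped by at least 1 bp, with Python 3.11.15 and pandas 2.3.3. Genes and sequence came from GENCODE M1 on NCBIM37, the assembly of mm9, which held 99.7% of the peaks. A symbol with several gene identifiers (Fgfr1) was taken as 1 gene. A tandem repeat was at least 18 nt long (20 nt for a unit of 4 nt). Libraries of a group shared at most 1.53% identical intervals. Merging and assignment were checked on simulated peaks. All 9 members are named, regions of 2 or more libraries are described in full, other pathway genes are named when a region had a peak in all 3 WT ESC libraries (1 such gene is not reported here), and the sequence shown for a gene is that of its region with the most libraries outside UTRs (with equal numbers, the lowest in position), and none is shown for Socs3, whose window touches a UTR. The members and lists were chosen with earlier results of these data known. Alternatives were the overlap, the number of replicates required, overlap with the gene span, the stronger peaks, equal list length, 1 label prefix and each library left out.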

Additional observations from a re-analysis of the deposited data

How the results depend on the processing

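No paired analysis was possible because no member region had a peak in all 6 libraries of a comparison. The planned tests of log2 fold enrichment, which used regions with a peak in all 6 libraries, therefore gave no value. The counts of member regions in every WT ESC library without a TKO ESC or a WT EB peak were 0 under all 12 alternatives each, among them a required overlap of 100 bp, 2 of 3 replicates, the stronger peaks of each list, lists shortened to 498 peaks and the label prefix 1703 only. Each alternative still required at least 2 WT ESC libraries, and each of these regions was found in 1, so the 0 was fixed and shows nothing of stability. The count for Tet2-KI ESC without a Tet2deltaRBD-KI ESC peak ranged from 0 to 6 when 1 library was left out. The alternatives that follow were chosen after seeing the data. Without the 4 knock-in libraries, 4 members had a peak, in 8 regions, of which 2 lay in a 5′ UTR. Member regions in both Tet2-KI ESC libraries ranged from 3 to 12 with 1 library left out, the 12 being those of Tet2-KI ESC replicate 1 alone. With 1 library left out, members with a peak ranged from 7 to 8, member regions from 15 to 21, the lowest without Tet2-KI ESC replicate 1, and 5′ UTR regions stayed at 5. Members with a peak in a group ranged, with 1 of its libraries left out, from 2 to 4 in WT ESC, 0 to 1 in TKO ESC, 0 to 1 in WT EB and 4 to 7 in Tet2-KI ESC, and were 5 in Tet2deltaRBD-KI ESC without either library. A required overlap of 100 bp gave 25 member regions, with 7 in a 5′ UTR and 2 in both Tet2-KI ESC libraries.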

Other observations

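For the members with peaks in 4 or more libraries, coding genes with the same presence over the 13 libraries were counted among 7174 genes with any peak. Lifr shared its set of 4 libraries with 23 other genes. Fgfr1 shared its 4 with 8 genes (5730590G19Rik, Bcl7c and Eif5a first) and Ctnnb1 its 5 with 28 (Atp2a3, Blcap and C2 first). No other coding gene had the set of 8 libraries of Gsk3b.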
